A study of Mus musculus with 2 samples.

Results

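Heterotrimeric G proteins and the regulators of G protein signalling (RGS proteins) were compared between the cerebral cortex of control mice and of mice with a presenilin conditional double knockout (PS cDKO). The members were all probe sets that the platform annotation paired with exactly 1 symbol of a G protein alpha, beta or gamma subunit or of an RGS protein. They numbered 62 probe sets of 39 genes, out of 10829 probe sets of 8251 genes with 1 symbol. There were 14 alpha, 5 beta, 7 gamma and 13 RGS genes.

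The data were 1 oligonucleotide array of total RNA per genotype, both from mice aged 6 months. The labels give neither the alleles nor the Cre driver of the PS cDKO mice, nor the genotype of the controls, nor whether an array held RNA of 1 animal or of a pool. As this line is generally described, Cre is driven by a promoter of excitatory forebrain neurons, so that glia keep a presenilin there and the cortex is a mixture of deleted and undeleted cells. With 1 array per group no difference below has a replicate check, and no p-value is given. Fewer cells of a type and less RNA per cell cannot be told apart in such tissue RNA.

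G protein-coupled receptors act through a heterotrimer of an alpha subunit, which binds GTP, and a beta-gamma dimer, which is freed on activation and has targets of its own. RGS proteins speed GTP hydrolysis by the alpha subunit and so end the signal. In the cortex these proteins carry the responses to acetylcholine, monoamines, peptides and the metabotropic actions of glutamate and GABA.

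Signal means the deposited linear intensity, with the PS cDKO array multiplied by 1.02 so that bright probe sets had a median log2 ratio of 0. Values below a signal of 232, the 40th percentile of both arrays pooled, were set to that floor. A ratio is PS cDKO over control, and a probe set at the floor on 1 array gives only a limit, written "at least". A gene's ratio averages the probe sets over the floor on each array, or its limits where it has no other. Psen2, a presenilin gene, had a signal of 105 in control and 97.1 in PS cDKO cortex, both under the floor, so that it gave no check of the genotype. Median deposited intensities were 300 and 305, and 59.1% and 60.9% of all 12418 probe sets lay above the floor. Across the 5414 genes over the floor on each array, log2 ratios had a robust SD of 0.23, a spread across genes and not between animals.

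Most members lay close to the control level. With limits taken at their value, the widest difference was that of the beta subunit Gnb1, followed by the gamma subunit Gng3 in the other direction. Rgs2 gave only a limit. With a floor at the 20th percentile its log2 ratio was 0.61, wider than the -0.43 of Gng3. Of the 39 genes, 30 gave a ratio, 27 of them from probe sets over the floor on each array and 3 as a limit. Of the 30, 14 were higher and 16 lower in the PS cDKO, with a median log2 ratio of -0.01, beside 0.01 over all 5885 measured genes. The share higher was 46.7%, beside 51.9% of all measured genes. With limits taken at their value, as in the counts that follow, 23 of the 30 lay within 1.2-fold of the control, or 76.7%, beside 74.6% of all measured genes. At least 1.3-fold higher was 1 member, Gnb1, or 3.33% of the 30, where 5.35% of all measured genes were. At least 1.3-fold lower was also 1 member, Gng3, again 3.33%, where 5.15% of all measured genes were.

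**Figure D1:**
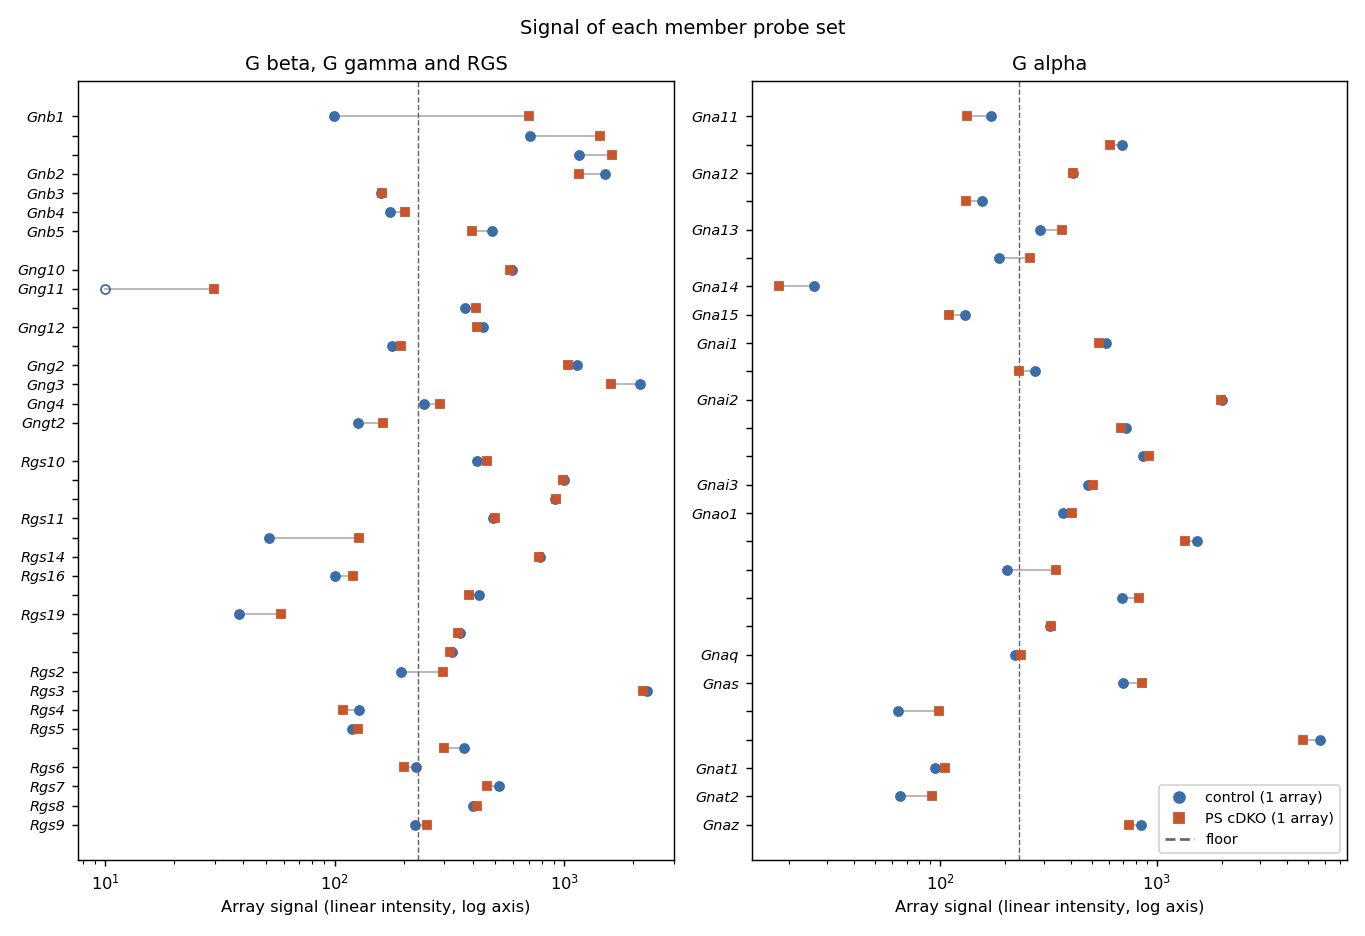
Signal of each of the 62 member probe sets on the control array (blue circles) and the PS cDKO array (orange squares), on a log axis, with the floor of 232 as a dashed line and an unlabelled row for each further probe set of the gene above it. The open circle stands for a Gng11 probe set with a control signal of 0.89, drawn at the left edge. All 3 Gnb1 probe sets lie further right in the PS cDKO, whereas Gnb2 and Gng3 lie further left.

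The beta subunits form the stable dimer with gamma and are built as a ring of WD repeats. Their 5 genes had 7 probe sets. Gnb1 and Gnb2 are the widely expressed forms, and Gnb5 is the neuronal form that pairs with RGS proteins of the R7 family in place of a gamma subunit. Since the widest contrast among the beta subunits lay between Gnb1 and Gnb2, the sequence just before each gene is shown first, from the RefSeq promoter table of GRCm38.p6. Both are the part of the promoter window that lies outside every annotated gene.

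Gnb1, chr4:155491111-155491299, plus strand: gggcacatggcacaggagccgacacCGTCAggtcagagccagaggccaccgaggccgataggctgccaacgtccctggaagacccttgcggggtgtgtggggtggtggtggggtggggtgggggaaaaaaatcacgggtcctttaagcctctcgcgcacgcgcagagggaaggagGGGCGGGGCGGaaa
Gnb2, chr5:137533450-137533556, minus strand: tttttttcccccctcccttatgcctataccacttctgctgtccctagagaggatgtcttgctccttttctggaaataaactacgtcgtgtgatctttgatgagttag

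Capitals mark the matches to the motifs searched on both strands: the cAMP response element TGACGTCA, its half-site TGACG, which lies within the full element, the GC box GGGCGG and the TATA box TATAAA. The Gnb1 stretch holds 1 half-site, read on the opposite strand as CGTCA, and 2 overlapping GC boxes. The Gnb2 stretch holds none of these motifs. Over the whole windows of 300 bases, from 250 before to 50 after the start, Gnb1 had 2 half-sites and 4 GC boxes. Gnb2 had 1 of each. Of all 32851 such windows in the table, 20.8% hold the half-site, 35.7% the GC box, 1.79% the full element and 13.6% the TATA box. Neither Gnb1 nor Gnb2 had the full element or the TATA box in its window. The windows of Gnb5 and Gng3 were also searched, but no part of either lies outside every annotated gene, so neither is shown. Gnb5 had 1 TATA box and none of the other motifs, and Gng3 had none. The G and C content of the windows was 70.3% for Gnb1 and 55.0% for Gnb2, beside a median of 52.7% over all windows. These are matches of letters, and no binding was measured.

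Gnb1 was higher in the PS cDKO in all 3 of its probe sets. The probe set 97458_at had a signal of 1160 in control and 1609 in PS cDKO cortex, which is 1.39-fold higher. The probe set 94854_g_at had 708 and 1436, which is 2.03-fold higher. The probe set 94853_at had 99.0, under the floor, and 699, which is at least 3.02-fold higher. The 3 agree in direction and differ widely in size. The last 2 were designed from the same source sequence per the platform annotation, so that they are not separate measurements of the gene, whereas 97458_at came from another.

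The gene value of Gnb1, from the 2 probe sets over the floor on each array, was 1.68-fold, or 0.75 on the log2 scale. It ranked 24th from the top of the 5885 measured genes. Among the 6905 measured probe sets with 1 symbol, 94853_at ranked 3rd from the top, 94854_g_at 11th and 97458_at 187th. The ratio of 94853_at hung on the floor. Floors at the 20th and 60th percentiles gave at least 6.11-fold and at least 1.74-fold, and no floor gave 7.06-fold. Without suffixed probe sets such as 94854_g_at, the gene value was 1.39-fold.

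The other 2 measured beta genes were lower. Gnb2 had a signal of 1508 in control and 1164 in PS cDKO cortex, a log2 ratio of -0.37, just inside 1.3-fold lower. Gnb5 had 485 and 397, which is 1.22-fold lower. Each rests on 1 probe set. Gnb2 ranked 314th and Gnb5 639th from the bottom of the measured genes. Gnb3, the form known from cone photoreceptors, and Gnb4 were under the floor on each array, with Gnb3 at 159 and 161 and Gnb4 at 173 and 203.

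None of the 3 measured beta genes lay within 1.2-fold of the control, where 74.6% of all measured genes did. The class held both the highest and, after Gng3, the lowest of the 30 member values. The median log2 ratio of the 3 beta genes, -0.29, and their mean, 0.03, differ in sign because of Gnb1. With the floor at the 20th percentile or with none, Gnb3 and Gnb4 entered and the median was 0.02. Both then lay within 1.2-fold of the control, at 1.02-fold and 1.17-fold.

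**Figure D2:**
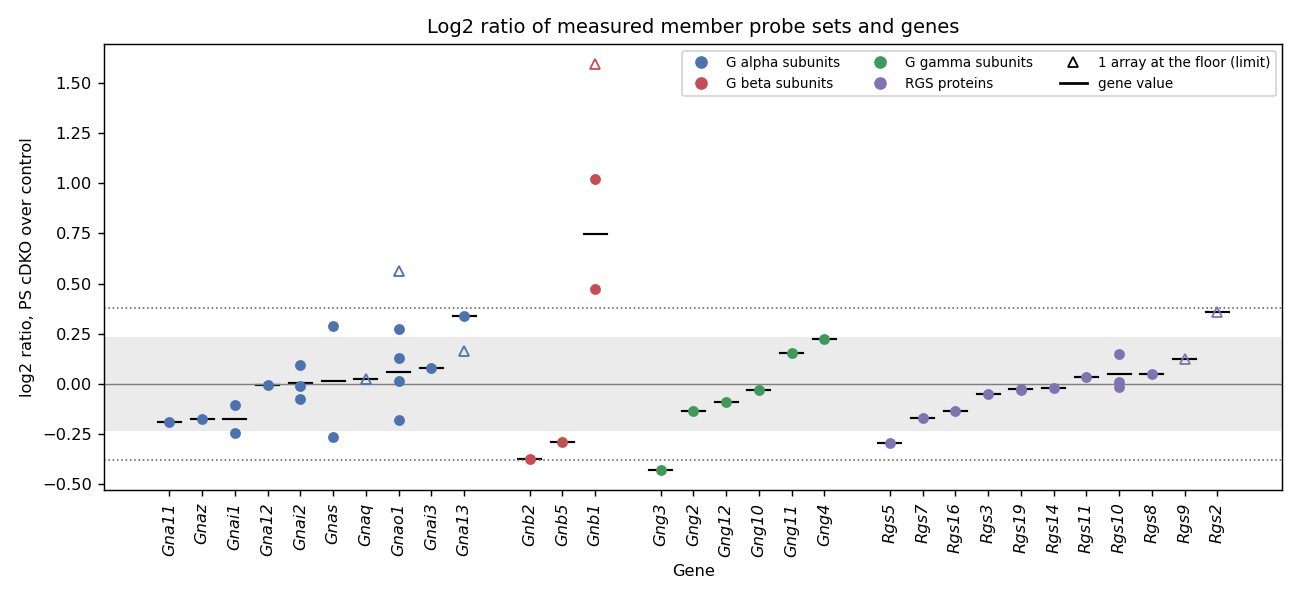
Log2 ratio, PS cDKO over control, of each measured member probe set (filled circles over the floor on each array, open triangles limits with 1 array at the floor) and of each gene (black bars), coloured by class and ordered by gene value. The grey band is 1 robust SD (0.23) across all genes, dotted lines mark 1.3-fold, and of the gene values Gnb1 lies above the upper line and Gng3 below the lower.

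The gamma subunits are small proteins whose lipid tail holds the beta-gamma dimer at the membrane. Of their 7 genes 6 were measured, all over the floor on each array, 2 higher and 4 lower, with a median log2 ratio of -0.06. Gng3, a gamma subunit abundant in neurons, had a signal of 2148 in control and 1596 in PS cDKO cortex. That is 1.35-fold lower, a log2 ratio of -0.43 and the 205th lowest of all measured genes. It rests on 1 probe set, and was 1.29-fold lower after quantile normalization and 1.27-fold lower after lowess, which both put it inside 1.3-fold.

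Gng2, another gamma subunit abundant in brain, had signals of 1139 and 1036, a log2 ratio of -0.14. Gng12 had 442 and 415, and Gng10 had 591 and 578, so that these broadly expressed forms were 1.07-fold and 1.02-fold lower. Gng4 had 245 and 286, both near the floor, and was 1.17-fold higher. Gng11 had 371 and 412 in 1 probe set and was 1.11-fold higher. Gng3 thus stood below the other 5, which all lay within 1.2-fold of the control.

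Further gamma probe sets gave no ratio. A second probe set of Gng11 had 0.89 and 29.8, and a second of Gng12 had 177 and 194. Gngt2, the gamma subunit of cone photoreceptors, had 126 and 163. All of these are under the floor.

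The alpha subunits set which receptors and effectors a heterotrimer serves. Of their 14 genes 10 were measured, 6 higher and 4 lower, with a median log2 ratio of 0.01. Within 1.2-fold lay 9 of the 10, or 90%, beside 74.6% of all measured genes. None of the 10 was at least 1.3-fold higher or lower in its gene value. Over all measured genes, 5.35% were that much higher and 5.15% that much lower.

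In the i/o class, which lowers cAMP and opens potassium channels through beta-gamma, all 5 measured genes lay within 1.2-fold. Gnao1, the main alpha subunit of the brain, had the most probe sets and these differed among themselves. One, 103843_at, had signals of 1524 and 1345 and was 1.13-fold lower. Another, 104414_at, had 687 and 831 and was 1.21-fold higher, and 100388_at had 370 and 405, or 1.09-fold higher. With 161902_f_at at 321 and 324, 3 of the 4 over the floor on each array were higher, and the gene value was 1.04-fold.

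A further Gnao1 probe set, 103844_at, had 203 in control and 343 in PS cDKO cortex, at least 1.48-fold higher, or 1.69-fold without a floor. With a floor at the 60th percentile it gave no ratio. The gene is known to give alternatively spliced forms, and the form that each probe set reads is a point not given in the sources used here. The brightest probe set alone put the gene at a log2 ratio of -0.18, so that its direction turns on the probe set.

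Gnai2, the i-type subunit shared by neurons, glia and blood cells, had signals of 1997 and 1982, 720 and 684, and 863 and 921 in its 3 probe sets. Its gene value was 0.0022 on the log2 scale, and none of the 3 was beyond 1.2-fold. Gnai1 was lower in both of its probe sets, with 584 and 543 in 1 and 275 and 232 in the other, the last at the edge of the floor, for a gene value 1.13-fold lower. Gnaz, the pertussis toxin-insensitive member, had 841 and 743 and was also 1.13-fold lower.

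Gnas encodes the subunit that stimulates adenylyl cyclase, in a complex locus with several promoters. Its brightest probe set, 93271_s_at, had signals of 5685 and 4733, a log2 ratio of -0.26. The probe set 102082_at had 699 and 854 and was 1.22-fold higher, and the remaining probe set was under the floor on each array. The gene value of 1.01-fold is a mean of opposite ratios. Without suffixed probe sets the log2 ratio of the gene was 0.29. Which transcripts these probe sets read is a point not given in the sources used here.

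In the 12/13 class, which acts on the actin cytoskeleton, Gna13 was the highest alpha subunit. Its probe set over the floor on each array had 288 and 364, which is 1.26-fold higher. The other had 187 and 260, at least 1.12-fold higher, or 1.39-fold without a floor. Both point the same way, at signals close to the floor, and neither gave a ratio with a floor at the 60th percentile.

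In the q class, which activates phospholipase C beta, Gna11 had signals of 691 and 606 and was 1.14-fold lower. A second Gna11 probe set had 171 and 133, under the floor. The other 3 measured alpha genes, Gna12, Gnai3 and Gnaq, had log2 ratios between -0.01 and 0.08, that of Gnaq being a limit.

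The alpha subunits known from photoreceptors or blood cells were under the floor on each array, as was Gna14. The floor did not part such genes cleanly. Of 9 photoreceptor markers with a probe set 5 were under it on each array, but Crx had 1372 and 1175. The rod and cone transducins Gnat1 and Gnat2 had signals of 94.5 and 106, and of 65.5 and 91.4. Gna15, of blood cells, had 130 and 109, and Gna14 had 26.1 and 18.0. Over the 9 member genes with no ratio, each with 1 probe set, signals ran from 26.1 to 227 in the control and from 18.0 to 203 in the PS cDKO.

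Most RGS genes lay close to the control, as did most of all measured genes. Of 13 genes 11 were measured, 5 higher and 6 lower, with a median log2 ratio of -0.02. Of the 9 over the floor on each array none was 1.3-fold higher or lower, and the limit of Rgs2 was at least 1.28-fold. With limits taken at their value, 9 of the 11 lay within 1.2-fold, or 81.8%, beside 74.6% of all measured genes.

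The R4 family holds small RGS proteins, several of which are induced by activity. Rgs2, a regulator of the q class and an immediate early gene in neurons, had a signal of 195 in control and 297 in PS cDKO cortex, at least 1.28-fold higher. It was 1.52-fold higher with no floor and gave no ratio with a floor at the 60th percentile. Rgs5, a marker of pericytes, had 368 and 299 and was 1.23-fold lower in 1 probe set, while another had 119 and 126, under the floor. With no floor the log2 ratio of Rgs5 was -0.11, and with a floor at the 60th percentile there was none.

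The other R4 members lay nearer to the control. Rgs3 had 2290 and 2212 and was 1.04-fold lower. Rgs16 had 424 and 386, a log2 ratio of -0.14, with a further probe set under the floor at 100 and 120. Rgs4, known as a neuronal RGS of the cortex, had 128 and 109, so that its probe set gave no ratio.

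The R7 family is held stable by Gnb5 and acts on the i/o class in neurons. Rgs7 had signals of 518 and 461 and was 1.13-fold lower, beside 1.22-fold lower for Gnb5. Rgs6 was under the floor on each array, at 227 and 200. Rgs11 was 1.02-fold of the control, and Rgs9, a striatal and retinal member, was at least 1.09-fold higher. Rgs11 was at a log2 ratio of -0.0015 on the intensities as deposited, and Rgs9 lay near the floor. The side of the control on which Rgs11 lies is therefore not settled. Rgs9 was higher under each of the 8 settings that gave it a ratio. These all read 1 probe set near the floor, so that its side is uncertain too.

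In the R12 family, Rgs10, an RGS protein of microglia and neurons, had 1001 and 989, 910 and 917, and 416 and 461 in its 3 probe sets, for a gene value of 1.03-fold. Rgs14, of hippocampal and other neurons, had 784 and 773 and was 1.02-fold lower. Together with Rgs11 and Rgs9, the remaining RGS genes Rgs8 and Rgs19, the last of the RZ family, had gene values between 0.98-fold and 1.09-fold of the control.

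Of 7 member genes with more than 1 probe set over the floor on each array, Gnai1, Rgs19 and Gnb1 had all of them on 1 side of the control. Gnai2, Gnao1, Gnas and Rgs10 did not. The range of log2 ratios within a gene reached 0.55 for Gnas and for Gnb1 and 0.45 for Gnao1. For all 749 genes with at least 2 such probe sets, the 2 brightest of each were paired. From these pairs the robust SD of 1 probe set's log2 ratio was 0.21, or 1.15-fold. That is a spread between probe sets on the same 2 arrays, and not between arrays or animals.

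Over single probe sets, 44 of the 62 members were measured, 21 higher and 23 lower. At least 1.3-fold higher were 4 of them, or 9.09%, beside 5.68% of all measured probe sets with 1 symbol. These were the 3 of Gnb1 and 103844_at of Gnao1. At least 1.3-fold lower was 1, that of Gng3, or 2.27% beside 5.62%.

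The proteins on either side of the heterotrimer were described from lists of receptors, effectors and modulators. Of 39 receptor genes with a probe set, 30 were measured, 16 higher and 14 lower, with a median log2 ratio of 0.03. That is 53.3% higher, beside 51.9% of all measured genes. The 3 largest values, with limits taken at their value, were higher in the PS cDKO: the muscarinic receptor Chrm4 by 1.39-fold (326 and 454), the somatostatin receptor Sstr1 by 1.37-fold (509 and 696) and the histamine receptor Hrh2 by 1.33-fold (315 and 418). With a floor at the 60th percentile Chrm4 and Hrh2 gave limits of at least 0.17 and at least 0.05 on the log2 scale. Chrm4, Sstr1 and Hrh2 were the only 3 of the 30 at least 1.3-fold higher, where 5.35% of all measured genes were. Ratios over the floor on each array were all less than 1.3-fold lower, where 5.15% of all measured genes were at least 1.3-fold lower. The neuropeptide Y receptor Npy5r, at the floor in the PS cDKO, was at least 1.28-fold lower (296 and 216), a limit that leaves its size unknown.

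Of 20 effector genes 14 were measured, 5 higher and 9 lower, with a median of -0.06. Adcy4, an adenylyl cyclase, was 1.31-fold higher (274 and 359), and Adcy2, another, was 1.19-fold lower (1430 and 1207). Pde6b, of the phosphodiesterase that rod transducin activates, was at least 1.21-fold higher. Of the 13 over the floor on each array only Adcy4 was past 1.3-fold.

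Of 3 measured receptor kinases and arrestins, Grk6 was 1.22-fold lower (411 and 336), Arrb1 1.18-fold lower (818 and 716) and Grk5 at least 1.21-fold higher. Their median log2 ratio was -0.24, and -0.01 with no floor. Arrb1 was at -0.08 by its brightest probe set and at -0.39 without suffixed probe sets. With a floor at the 60th percentile Grk6 gave only a limit, -0.03 or lower. Of 4 other measured modulators, with a median of 0.09, the PDZ adaptor Gipc1 was 1.26-fold lower, Gpsm3, an inhibitor of GDP release, 1.15-fold higher and the exchange factor Ric8a 1.07-fold higher.

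Of the 5 subunits of protein kinase A, the main target of cAMP, 2 were higher and 3 lower, with a median of -0.12. Prkar1b, a neuronal regulatory subunit, was 1.25-fold lower (2137 and 1716), the catalytic Prkaca 1.21-fold lower (1162 and 959), and Prkar1a 1.11-fold higher (1792 and 1993). None of the 5 was past 1.3-fold, beside 5.35% of all measured genes higher and 5.15% lower by that much.

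**Figure D3:**
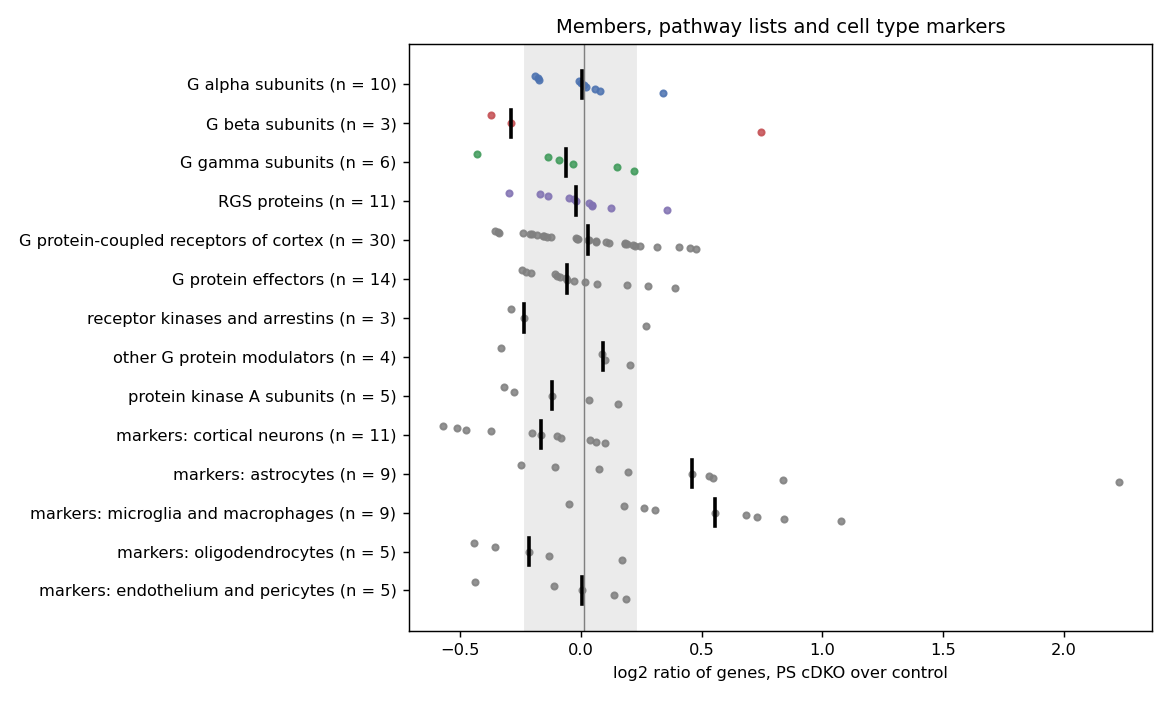
Log2 ratio of each measured gene (points) and the median (black bar) for the 4 member classes, the 5 pathway lists and 5 lists of cell type markers, with the number of measured genes in parentheses and 1 robust SD across all genes in grey. The member classes centre between -0.29 and 0.01, whereas the astrocyte and microglia markers centre at 0.46 and 0.55.

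Cell type markers moved beside these values. The counts below are to be read beside the 51.9% of all measured genes that were higher. Of 13 neuron markers with a probe set 11 were measured, 8 of them lower, with a median log2 ratio of -0.16 and a summed signal of 16187 in control and 13696 in PS cDKO cortex. Neurod6 and Gad2 were under the floor on each array, and the lowest were Nrgn (1.49-fold lower), Tbr1 (1.43-fold) and Nefl (1.39-fold). Of 9 astrocyte markers 7 were higher, with a median of 0.46 and sums of 10182 and 12318, led by Gfap (4.68-fold), Serpina3n (1.79-fold) and Gja1 (1.46-fold, but 0.02 on the log2 scale by its brightest probe set). Of 9 measured microglia and macrophage markers 8 were higher, with a median of 0.55 and sums of 4195 and 6321, led by C1qa (2.11-fold), Ctss (1.79-fold) and C1qc (1.66-fold). Aif1 and Fcer1g were under the floor. The part of these markers in the values of Gng3, Gnb2, Gnb5 and Gnb1 was not tested.

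The other marker lists bear on single members. Endothelial and pericyte markers, beside Rgs5, had 5 of 10 genes measured, 3 higher and 2 lower, with a median of 0.01 and sums of 2645 and 2699. Pecam1, Cdh5, Tek, Pdgfrb and Abcc9 were under the floor, while Cldn5 was 1.35-fold lower, the pericyte channel gene Kcnj8 1.14-fold higher and Kdr 1.10-fold higher. Oligodendrocyte markers had a median of -0.21 over 5 of 7 genes, 4 of them lower, with sums of 4082 and 3756. Mobp was 1.36-fold, Cldn11 1.28-fold and Mag 1.16-fold lower, with Cldn11 at a log2 ratio of 0.13 without a floor, and Mog and Cnp were under the floor. Of the striatal markers, beside Rgs9, 2 were measured, Drd2 at 1.17-fold and Penk at 1.05-fold of the control, with a median of 0.15 and sums of 2158 and 2355. Without a floor the log2 ratio of Penk was 0.41. Tac1 was under the floor. Blood markers had a median of 0.07 over 4 of 6 genes, 2 higher and 2 lower, with sums of 2963 and 2523. The globin Hba-a1 was 1.37-fold lower, S100a8 at least 1.31-fold and Cd3e 1.19-fold higher, and Pf4 and S100a9 were under the floor. Photoreceptor markers, beside Gnat1, Gnat2 and Gngt2, had 4 of 9 genes measured, with a median of 0.19 and sums of 2652 and 2670. Besides Pde6b, Opn1sw was 1.18-fold higher and Crx 1.17-fold lower, and Sag, Pdc, Pde6a, Pde6g and Rcvrn were under the floor.

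The directions of Gnb1, Gnb2, Gnb5 and Gng3 held under each processing setting tried. Gnb2, Gnb5 and Gng3 have 1 probe set each, so settings that choose among probe sets could not change them. Gnb2 and Gng3 also lay over every floor tried, so that only the scalings could change their values. Over 10 settings the log2 ratio of Gnb1 ran from 0.47 to 1.44. That of Gnb2 ran from -0.41 to -0.32, that of Gnb5 from -0.32 to -0.27 and that of Gng3 from -0.46 to -0.35.

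**Figure D4:**
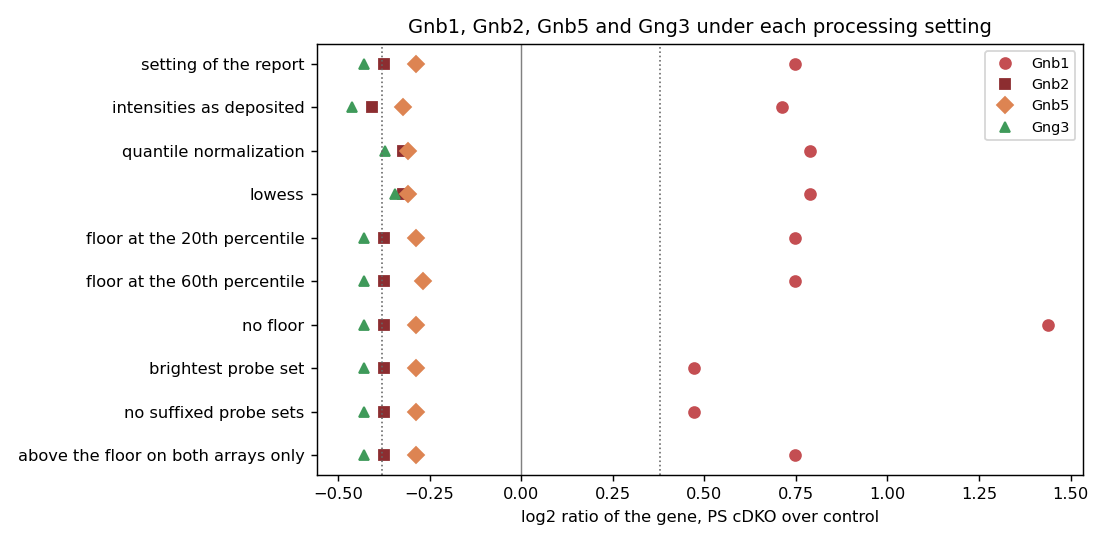
Log2 ratio of Gnb1, Gnb2, Gnb5 and Gng3 (x axis) under the setting used here and 9 others (rows), with dotted lines at 1.3-fold. Gnb1 lies at 0.47 or above in every row, and the other 3 genes reach at most -0.27. Rows that change only the floor or the choice of probe sets leave Gnb2 and Gng3 in place.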

How the data were processed

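The deposited values are linear intensities, 1 for each probe set on each of 2 arrays. How the authors made the intensity values (software, background step, scaling) is a point not given in the sources used here. Below 0 were 13 intensities of the control and 18 of the PS cDKO. No detection calls were used, and the number of arrays limits the precision.

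The PS cDKO array was shifted by 0.034 on the log2 scale, which centred the log2 ratio at a median of 0 among probe sets brighter than the median of each array. A floor at the 40th percentile (232) was then set and log2 taken. Symbols came from a platform annotation that can be old (10829 probe sets with 1 symbol, 396 with several, 1193 with none), and all 39 member genes had their gene ID in a RefSeq table of GRCm38.p6. Genes of the lists were matched by symbol or by gene ID.

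The members and the lists of receptors, effectors, modulators and cell type markers were chosen with earlier results of these data known. In classes of up to 8 measured genes every measured gene is given, and otherwise the 4 brightest and the 4 with the largest ratio, with the rest as a range. List genes are named when among the 3 with the largest ratio of their list, and marker genes also when under the floor. The calculation was tested on simulated data, with changes larger than 1.3-fold planted in bright genes of a single probe set. That test does not bear on smaller changes, on limits or on genes near the floor. Alternatives were other scalings (none, quantile, lowess with span 0.3), no floor or floors at the 20th or 60th percentile, the brightest probe set, no suffixed probe sets (those with a letter before the ending, as in _g_at), only values over the floor on each array, other fold thresholds and means in place of medians. Python 3.11.15, numpy 2.4.6, pandas 2.3.3, statsmodels 0.14.6 and matplotlib 3.10.9 were used.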

Additional observations from a re-analysis of the deposited data

How the results depend on the processing

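Leaving out an array would empty a genotype. No paired analysis was possible because neither genotype has a replicate. The medians of all members and of the alpha, gamma and RGS classes, and of the receptor, effector, modulator and protein kinase A lists, moved by less than 0.21, the SD of 1 probe set's log2 ratio, under every alternative. The beta median of -0.29 turned to 0.022 under the 20th percentile floor or without any, and to 0.028 as a mean. The median of receptor kinases and arrestins was -0.011 with no floor. The median over all genes shifted by under 0.1 with each scaling.

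The count of member genes at least 1.3-fold higher, 1, was 3 under the 20th percentile floor (with Gna13 and Rgs2 added), 6 with no floor and 3 at 1.2-fold. The count at least 1.3-fold lower, also 1, became 2 as deposited (with Gnb2) and 2 with no floor (with Gna14), 0 after quantile normalization or lowess, 4 at 1.2-fold and 0 at 1.5-fold. The 4 probe sets at least 1.3-fold higher became 11 with no floor, 2 above the floor on both arrays only, 8 at 1.2-fold and 2 at 1.5-fold. The 1 lower became 2 as deposited and with no floor, 0 after quantile normalization or lowess, 5 at 1.2-fold and 0 at 1.5-fold. The causes were not tested. Of 256 values of single member genes under the alternatives, 244 moved by less than that SD. This count does not measure stability, because many of the values could not move. Gnaz, with 1 probe set over every floor tried, kept a log2 ratio of -0.18 under each change of floor or of probe sets. Alternatives that left a gene without a ratio, as the highest floor did for Gna13 and Rgs2, were not counted. With no floor Gng11 reached 2.61 and Rgs11 0.67 on the log2 scale, through probe sets far under the floor.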

Other observations

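Some probe sets with like names lie outside the family as defined here. A probe set shared by Gng5 and its pseudogene Gng5-ps had signals of 617 in control and 644 in PS cDKO cortex, a ratio of 1.04-fold, and cannot be given to either gene. Gnasas1, the antisense transcript of the Gnas locus, had 1064 and 979 and was 1.09-fold lower. The nucleolar GTPases Gnl2 and Gnl3, which are not heterotrimeric, were under the floor on each array.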
